A study of Mus musculus with 6 samples.

Results

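The list held 33 genes of cholesterol synthesis, sensing, uptake, lysosomal release and efflux, chosen by gene symbol. Of these, 31 had a probe set annotated to that symbol alone, out of 18194 such genes on the arrays. Soat1 and Nr1h2 were not analysed here. Each gene is represented by its brightest probe set, and all 31 were bright enough to be among the 10916 genes tested. The 6 Affymetrix arrays carried total RNA of whole testes taken at 12 weeks of age, with 3 SCARKO-jsd and 3 jsd samples. Both groups carry the jsd (juvenile spermatogonial depletion) mutation in Utp14b, which blocks spermatogonial differentiation and leaves the adult tubule nearly empty of meiotic and later stages. In SCARKO-jsd animals a gene is in addition knocked out conditionally in the Sertoli cells, by a recombinase whose promoter the labels do not name. The labels do not say that samples of a group came from separate mice, so a p-value here covers the spread between samples alone, and some of that may be technical.

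Cholesterol is built from acetyl units through mevalonate, squalene and lanosterol, taken up from lipoproteins by cell surface receptors, freed from its esters in lysosomes, and exported to apolipoproteins by ABC transporters. The SREBP transcription factors switch the synthesis genes on after Scap escorts them out of the endoplasmic reticulum, where the Insig proteins hold both when sterol is plentiful, and oxysterol-sensing LXR nuclear receptors switch the export genes on. In the testis cholesterol is the raw material of androgen in Leydig cells, and Sertoli cells, which support the germ line, handle the lipid of dying germ cells and supply growing ones.

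Values are log2 expression after RMA, a probe-level summary that brings all arrays to a shared distribution, and each difference is SCARKO-jsd minus jsd. Tests were made with limma across all genes, with a Benjamini-Hochberg adjusted p under 0.05 as the threshold. Rhox5, an androgen-dependent Sertoli gene, lay between 5.44 and 6.11 in the SCARKO-jsd arrays and between 9.74 and 10.43 in the jsd arrays. The array of SCARKO-jsd replicate 2 stood apart, with an excess of 3' over 5' beta-actin signal of 1.66 log2 units, against 0.70 to 0.98 in the other 5 arrays. The calls of Lrp8, Lipa, Stard3 and the marker genes are therefore also given without it.

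Among the 31 tested genes, Lrp8, a lipoprotein receptor, fell in SCARKO-jsd testes, and 30 did not pass the test. That is 0 members higher and 1 lower, where 3.57% of all 10916 genes passed in either direction, 1.78% as higher and 1.80% as lower. An unadjusted p under 0.05 was reached by 5 members (Lrp8, Lipa, Ebp, Abcg1 and Nr1h3) and by 18.0% of all genes. The share of members is thus near the background. The median log2 fold change was 0.003 over the members and 0.04 over all genes tested. Without SCARKO-jsd 2 these medians were 0.006 and 0.003. The arrays of the 2 genotypes did not overlap for 7 members, 4 higher and 3 lower, against 24.6% of all genes.

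**Figure D1:**
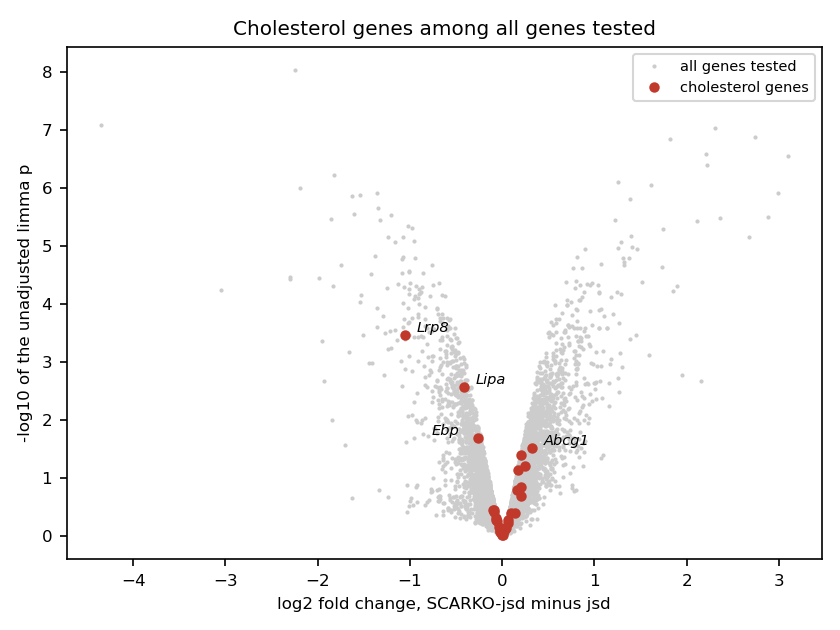
Each gene tested is a point, with its log2 fold change (SCARKO-jsd minus jsd) across and -log10 of its unadjusted limma p upward; the 31 cholesterol genes are red and all 10916 genes grey. Lrp8 at -1.05 and Lipa at -0.41 lie apart from the other members, which gather around 0.

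Promoter windows of 4 genes are shown. Lrp8 and Lipa had the lowest log2 fold changes of the members. Hmgcs1 and Mvk are examples of the synthesis enzymes, none of which passed the test. Each runs from 250 bases before to 50 bases from a RefSeq start (GRCm38.p6), 5′ to 3′ on the gene's strand. Capitals mark the letters AGAACA, the half-site of steroid receptors such as those for androgens and glucocorticoids, in the Lrp8 window, and CCAAT, the letters bound by NF-Y, a partner of SREBP, in the other 3. Both strands were searched, so TGTTCT and ATTGG also count. The windows of Hmgcs1 and Mvk hold 4 and 5 matches of CCAAT, more than those of some other synthesis genes, such as Lss and Sc5d.
Lrp8, chr4:107822911-107823210, + strand: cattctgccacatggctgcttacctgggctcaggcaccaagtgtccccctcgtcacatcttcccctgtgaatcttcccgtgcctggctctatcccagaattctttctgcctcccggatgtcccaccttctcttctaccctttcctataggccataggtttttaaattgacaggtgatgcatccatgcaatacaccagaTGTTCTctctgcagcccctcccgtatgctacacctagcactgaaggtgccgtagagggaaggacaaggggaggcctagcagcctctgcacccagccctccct
Lipa, chr19:34527425-34527724, - strand: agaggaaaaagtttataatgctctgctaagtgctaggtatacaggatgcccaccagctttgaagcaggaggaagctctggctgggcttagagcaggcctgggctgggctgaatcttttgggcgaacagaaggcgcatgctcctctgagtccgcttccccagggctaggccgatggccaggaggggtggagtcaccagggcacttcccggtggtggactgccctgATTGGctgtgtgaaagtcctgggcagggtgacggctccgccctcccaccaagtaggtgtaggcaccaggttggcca
Hmgcs1, chr13:119690101-119690400, + strand: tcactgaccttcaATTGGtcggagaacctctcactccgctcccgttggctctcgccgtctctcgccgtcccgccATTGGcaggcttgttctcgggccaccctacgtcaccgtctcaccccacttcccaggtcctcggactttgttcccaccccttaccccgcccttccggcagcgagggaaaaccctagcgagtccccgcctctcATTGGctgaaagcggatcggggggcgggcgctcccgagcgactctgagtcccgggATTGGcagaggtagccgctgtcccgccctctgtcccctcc
Mvk, chr5:114444019-114444318, + strand: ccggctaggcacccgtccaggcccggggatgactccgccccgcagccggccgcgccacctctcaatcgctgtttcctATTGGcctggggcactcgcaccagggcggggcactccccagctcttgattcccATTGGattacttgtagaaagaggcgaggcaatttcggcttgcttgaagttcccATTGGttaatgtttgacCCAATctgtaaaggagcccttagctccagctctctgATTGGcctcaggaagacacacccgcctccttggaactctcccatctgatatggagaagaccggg

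A window was found in that table for 27 of the 33 genes. CCAAT stood in at least 1 window of 14 of the 14 synthesis genes with a window, and of 7 of the 13 other members with a window. Among all 27025 genes of the table the share was 41.1%, and among the 8863 array-tested genes with a window it was 42.8%. The letters CACCCCA, the core of the classic sterol regulatory element, stood in 4 of the 27 members, Hmgcs1, Srebf2, Apoe and Soat1, in 8.66% of all genes and in 9.64% of the array-tested genes with a window. AGAACA stood in 9 of the 27 members (33.3%), in 21.3% of all genes and in 14.6% of the array-tested genes with a window. These shares count a gene if any of its windows holds the letters, and members had more windows per gene. The 27 members had 40 windows, all 27025 genes had 32851, and the 8863 array-tested genes had 11372. Lrp8 has 3 RefSeq starts in the table, and AGAACA lies 52 to 47 bases before the one shown and in neither of the other two windows. It is not particular to Lrp8: the Hmgcs1 window shown also holds TGTTCT, 165 to 160 bases before its start, left in lower case there. These matches describe the letters in each window only, and the 3 motifs searched overlapped nowhere in the windows shown.

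Of the 2 lipoprotein receptors, Lrp8 fell and Scarb1 did not pass. Lrp8 encodes apolipoprotein E receptor 2, which binds apolipoprotein E and reelin and, in mouse Sertoli cells, takes up selenoprotein P for the selenium supply of germ cells. On its brightest probe set (1442347_at) its log2 expression was 8.56, 8.69 and 8.32 in SCARKO-jsd 1, 2 and 3, against 9.56, 9.27 and 9.89 in jsd 1, 2 and 3. All 3 SCARKO-jsd arrays lay below all 3 jsd arrays. The log2 fold change was -1.05 ± 0.17 (SE), a 2.07-fold difference with a 95% interval of 1.57 to 2.73 (limma, Benjamini-Hochberg adjusted p = 0.0195).

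The other probe sets of Lrp8 also separated the genotypes. Probe set 1440882_at read 7.86, 7.73 and 7.77 in SCARKO-jsd testes, against 10.03, 9.80 and 10.26 in jsd testes. The gap between the groups there was 4.73-fold, with a 95% interval of 3.83 to 5.84 (limma over all 34958 single-symbol probe sets, adjusted p = 0.00263). Probe set 1421459_a_at read 6.09, 6.28 and 5.91 in SCARKO-jsd testes, against 7.16, 7.22 and 7.06 in jsd testes. Its difference was 2.07-fold (limma, adjusted p = 0.0211). Its SCARKO-jsd values and its mean over all arrays lie under the limit for dim genes, 6.64, so that size is uncertain. These were the only 2 of the 68 probe sets of the members that passed when each probe set was tested by itself, both lower, against 0.615% of all such probe sets in either direction and 0.323% as lower. The brightest one then had an adjusted p of 0.0655. The fold was larger on 1440882_at than on the other two, and the direction was the same in all 3.

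**Figure D2:**
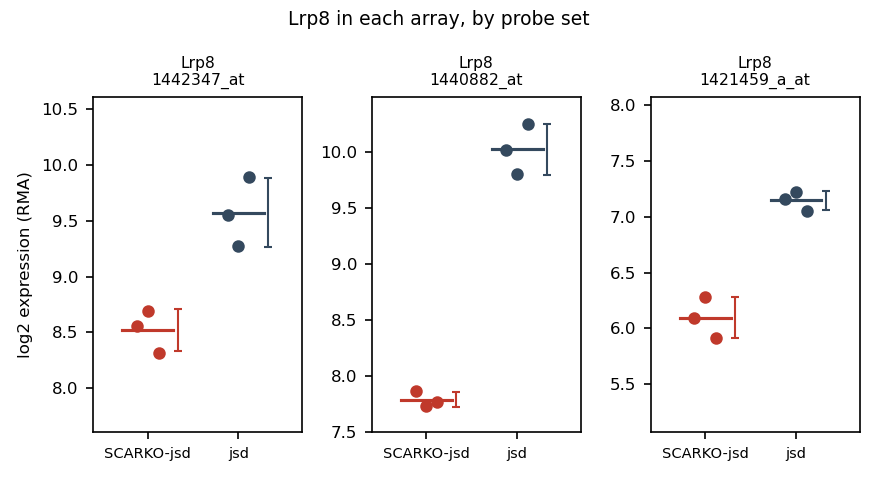
Log2 expression of Lrp8 in each array, 1 panel per probe set, with SCARKO-jsd in red on the left and jsd in dark grey on the right; lines are means of 3 arrays, bars are SD, and each panel is 3 log2 units high. In every panel all SCARKO-jsd points lie below all jsd points.

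The call of Lrp8 on its brightest probe set ended without jsd 1 (limma, Benjamini-Hochberg adjusted p = 0.0968) and without SCARKO-jsd 3 (0.0808), with log2 fold changes of -1.06 and -0.95. Without SCARKO-jsd 2 it passed (-1.14, 0.00833). Over 15 alternatives its adjusted p ran from 0.00142 to 0.0968. Probe set 1440882_at passed with any 1 array left out (adjusted p up to 0.0360), SCARKO-jsd 2 included, where its log2 fold change was -2.21. In RNA of whole testes, fewer cells of a type and less RNA per cell cannot be told apart, and the arrays do not show which cells carried the change.

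Scarb1, the high-density lipoprotein receptor, is abundant in steroid-making Leydig cells. It read 11.70, 12.20 and 12.11 in SCARKO-jsd testes, against 11.89, 12.03 and 11.65 in jsd testes. The groups overlap, and the log2 fold change of 0.14 had a 95% interval of -0.23 to 0.51 (limma, adjusted p = 0.690). Its other 2 probe sets gave 0.25 and 0.24.

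Marker genes of the cell types in the testis are given beside the fall of Lrp8. Among 11 Sertoli markers, 3 fell (Rhox5, Drd4 and Wt1), 1 rose (Krt18) and 7 did not pass. The mean log2 expression over that list ranged from 9.26 to 9.70 in SCARKO-jsd arrays and from 9.84 to 10.00 in jsd arrays. A split made after their values were seen left out the androgen-dependent Rhox5 and Drd4. The list mean then ranged from 9.77 to 10.23 in SCARKO-jsd arrays and from 9.75 to 9.90 in jsd arrays. The 9 genes left still included Krt18, whose log2 fold change was 1.95. The log2 fold changes of 5 of the 9 lay below 0 and of 4 above it, with a median of -0.13. Of 5 tested Leydig markers 0 passed (limma, 0 also at an unadjusted p under 0.05), with list means of 13.10 to 13.36 in SCARKO-jsd arrays and 13.15 to 13.26 in jsd arrays. Among 10 tested germ cell markers 5 rose, and the list means were 8.95 to 9.23 in SCARKO-jsd arrays and 8.32 to 8.57 in jsd arrays. Of 6 peritubular myoid markers 0 passed (limma, 0 also at an unadjusted p under 0.05). Of 5 tested endothelial markers 1 fell (Kdr), and the other 4 had log2 fold changes above 0 and did not pass. Vwf was the highest of these at 0.53, with no overlap of the arrays (limma, adjusted p = 0.142). The endothelial list means were 7.89 to 8.44 in SCARKO-jsd arrays and 7.85 to 8.22 in jsd arrays. The only red cell marker bright enough to test, Alas2, an enzyme of haem synthesis in red cell precursors, also fell. It averaged 7.73 ± 0.13 in SCARKO-jsd testes and 8.94 ± 0.08 in jsd testes (SD, n = 3 each). Its log2 fold change was -1.21 (limma, Benjamini-Hochberg adjusted p = 0.00156). The 3 other red cell markers, Hba-a1, Slc4a1 and Epb42, were too dim to test. They averaged 4.38, 4.73 and 4.80 in SCARKO-jsd testes and 4.33, 4.63 and 4.88 in jsd testes. Without SCARKO-jsd 2 each of these marker calls held, and 6 germ cell markers rose in place of 5. With 1 array left out, Rhox5, Drd4, Sycp3 and Alas2 passed every time, while Wt1, Krt18, Kdr, Dazl, Uchl1, Stra8 and Meig1 passed in 1 to 3 of the 6 fits. The part of cell numbers, red cell precursors included, in the result for Lrp8 was not tested.

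Lysosomal release of cholesterol starts with Lipa, the acid lipase that splits cholesterol esters and triglycerides delivered to lysosomes. It read 8.66, 8.91 and 8.84 in SCARKO-jsd testes, against 9.22, 9.23 and 9.19 in jsd testes. The arrays of the genotypes do not overlap on any of its 3 probe sets, with log2 fold changes of -0.41, -0.33 and -0.24. The brightest gave -0.41 ± 0.09 (SE), 1.33-fold, and did not pass (adjusted p = 0.0623 by limma and Benjamini-Hochberg), but it passed without SCARKO-jsd 2 (-0.46, 0.0228) and with limma's arrayWeights, which gives arrays of larger spread less weight (-0.43, 0.0155). Over 15 alternatives its adjusted p ran from 0.0155 to 0.245. Of the 10 markers of macrophages, cells rich in this enzyme, 0 passed by limma (1 at an unadjusted p under 0.05). The log2 fold changes of 8 lay below 0 and of 2 above it, with a median of -0.08. The 1 at an unadjusted p under 0.05 was Fcer1g, at -0.33 with no overlap of the arrays (limma, adjusted p = 0.0814). The list means were 10.04 to 10.31 in SCARKO-jsd arrays and 10.17 to 10.33 in jsd arrays. The part of macrophage numbers in the result for Lipa was not tested.

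Npc2 and Npc1 hand free cholesterol out of the lysosome, Npc2 as the soluble carrier and Npc1 as the membrane protein that receives it. Npc2 read 12.76, 12.73 and 12.83 in SCARKO-jsd testes, against 12.59, 12.58 and 12.65 in jsd testes. Its arrays do not overlap, yet the log2 fold change was only 0.17 ± 0.08 (SE) and did not pass (limma, adjusted p = 0.333). Npc1 read 7.46, 7.42 and 7.49 in SCARKO-jsd testes, against 7.48, 7.48 and 7.35 in jsd testes, with a 95% interval of the log2 fold change from -0.17 to 0.22.

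**Figure D3:**
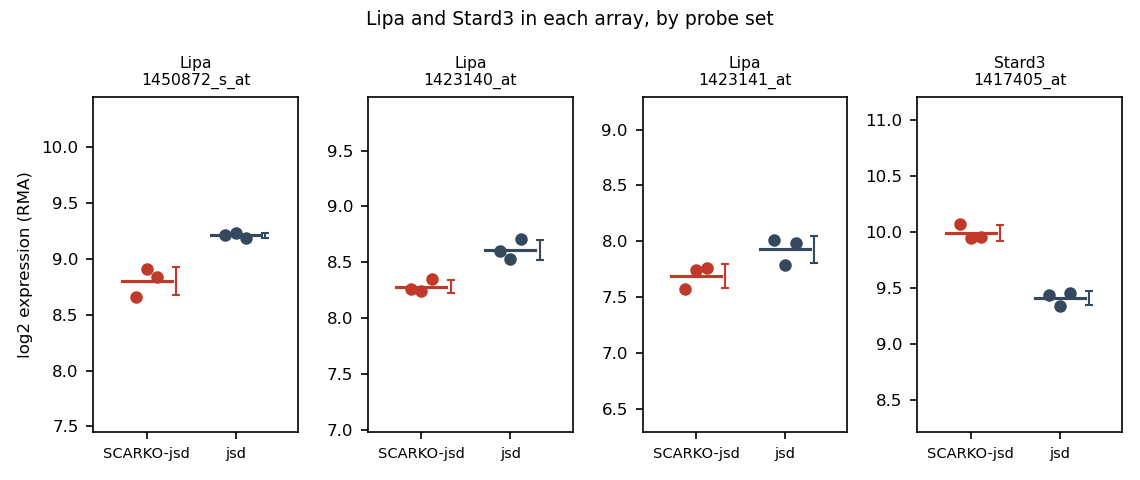
Log2 expression in each array for the 3 probe sets of Lipa and the 1 probe set of Stard3, with SCARKO-jsd in red on the left and jsd in dark grey on the right; lines are means of 3 arrays, bars are SD, and each panel is 3 log2 units high. Lipa lies lower and Stard3 higher in SCARKO-jsd arrays, with no overlap in any panel.

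The enzymes of synthesis did not pass the test, and their differences were bounded closely. Of 17 enzymes 0 passed (limma, adjusted p from 0.180 to 0.994), 1 had an unadjusted p under 0.05, and the log2 fold changes ran from -0.27 to 0.21 around a median of -0.007. For 17 of the 17 the 95% interval lay within 1.5-fold in both directions, as it did for 28 of the 31 members and 77.2% of all genes tested. Without SCARKO-jsd 2 the range was -0.22 to 0.19, and 17 intervals again lay within 1.5-fold. With arrays centred on their medians, or without jsd 2, 15 did.

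From the first steps to lanosterol, Hmgcs1, the synthase that makes HMG-CoA ahead of mevalonate, read 13.09, 13.21 and 13.15 in SCARKO-jsd testes, against 13.20, 13.16 and 13.35 in jsd testes. Its log2 fold change of -0.09 had a 95% interval of -0.30 to 0.12, so on this probe set the groups overlap within a narrow band. Its dimmer probe set 1433446_at was lower without overlap of the arrays, at -0.23 (limma over all probe sets, adjusted p = 0.428). Probe sets 1433445_x_at and 1433444_at gave -0.035 and -0.012, with overlap. Sqle, squalene epoxidase, a controlled step after squalene, read 11.31, 11.48 and 11.35 in SCARKO-jsd testes, against 11.20, 11.47 and 11.16 in jsd testes, a difference of 0.10 with an interval of -0.16 to 0.36. Fdft1, which makes squalene, had the highest value of these steps at 0.20 (interval -0.08 to 0.48), with 12.08 ± 0.18 in SCARKO-jsd and 11.88 ± 0.13 in jsd testes (SD, n = 3). The mevalonate kinases and decarboxylase Mvk, Pmvk and Mvd differed by 0.003, -0.02 and 0.02, the isoprenoid enzymes Idi1 and Fdps by 0.06 and -0.02, and the lanosterol synthase Lss by -0.09.

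Between lanosterol and cholesterol, Ebp, the sterol isomerase encoded on the X chromosome, was the only enzyme whose arrays did not overlap. It read 11.62, 11.47 and 11.57 in SCARKO-jsd testes, against 11.88, 11.86 and 11.72 in jsd testes. The log2 fold change of -0.27 ± 0.09 (SE) amounts to 1.20-fold and did not pass (limma, adjusted p = 0.180, and from 0.0890 to 0.473 over 15 alternatives). Cyp51, the lanosterol demethylase, read 11.33, 11.27 and 11.28 in SCARKO-jsd testes, against 11.29, 11.35 and 11.22 in jsd testes, a difference of 0.004 with an interval of -0.19 to 0.19. Sc5d, the desaturase that follows the isomerase, read 11.74, 11.82 and 11.81 in SCARKO-jsd testes, against 11.43, 11.93 and 11.39 in jsd testes. The higher mean of Sc5d in SCARKO-jsd testes, by 0.21, lies within the spread of the jsd arrays (SD 0.30). Dhcr7, the last step of the branch that runs through dehydrocholesterol, differed by -0.007, the reductase Tm7sf2 by -0.02, and the demethylation enzymes Msmo1, Nsdhl and Hsd17b7 by -0.07, -0.07 and 0.04.

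**Figure D4:**
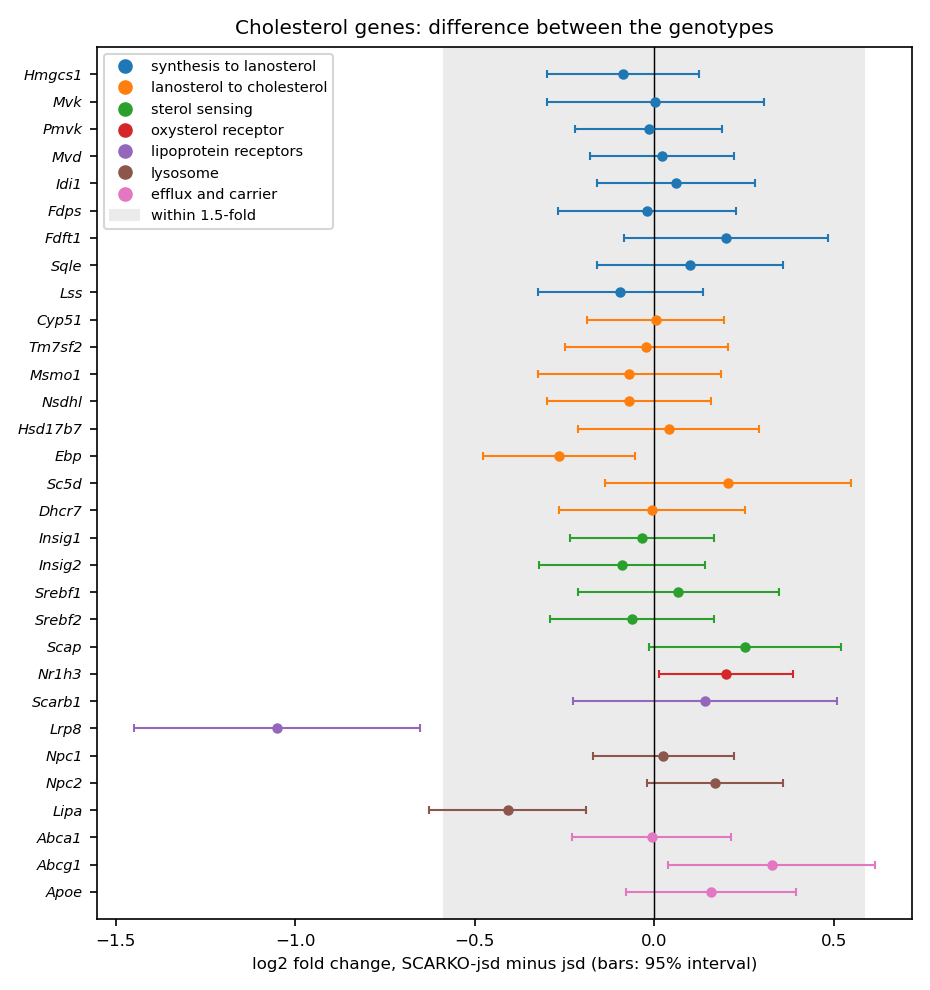
Log2 fold change (SCARKO-jsd minus jsd) of each of the 31 genes across, with its 95% interval from limma, ordered by role and coloured by role; the grey band marks 1.5-fold. Lrp8 lies outside the band, and the intervals of Lipa (lowest -0.63) and Abcg1 (highest 0.61) reach past its edge.

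The synthesis enzymes were also compared array by array. In jsd 2, 16 of the 17 enzymes lay above their own mean over the 6 arrays, with a median deviation of 0.14 log2 units. In SCARKO-jsd 2, 12 of 17 lay above theirs, with a median deviation of 0.07, while over all 10916 genes that array lay at 0.12 and jsd 2 at -0.02. The other 4 arrays had medians of -0.02 and -0.01 in SCARKO-jsd 1 and 3 and -0.08 and -0.04 in jsd 1 and 3. These are medians over genes of the same arrays and carry no test.

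**Figure D5:**
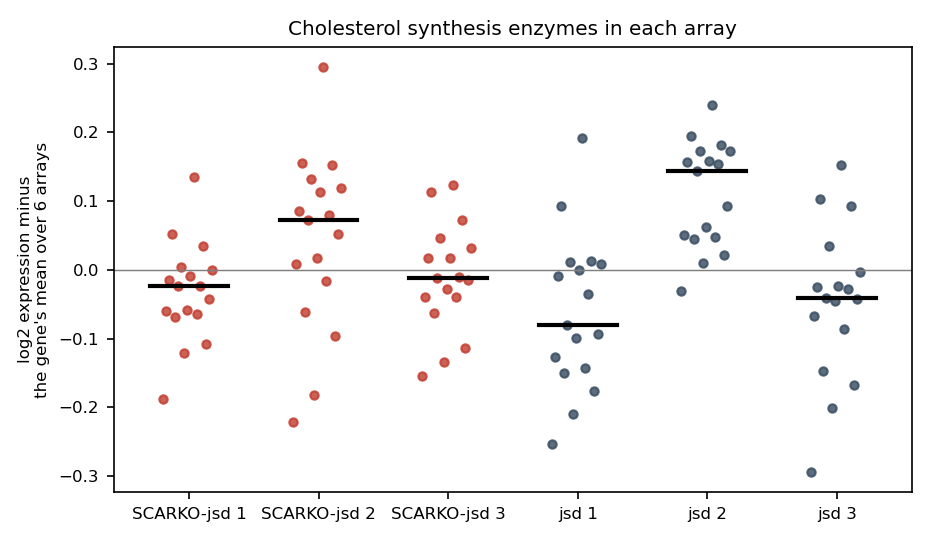
Each point is 1 of the 17 synthesis enzymes in 1 array, plotted as its log2 expression minus its own mean over the 6 arrays, with SCARKO-jsd arrays in red on the left and jsd arrays in dark grey on the right; black lines are medians. The jsd 2 array is high as a set (median 0.14), and the genotypes otherwise overlap.

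Some second probe sets went their own way in SCARKO-jsd 2. Probe set 1459627_at of Msmo1 read 8.21, 4.66 and 7.33 in SCARKO-jsd testes, against 7.03, 7.64 and 8.16 in jsd testes. The mean of the probe sets of Msmo1 is therefore -0.47, where its brightest gives -0.07. Probe sets 1441536_at of Hmgcs1 (7.18 in that array) and 1417871_at of Hsd17b7 (6.67) were likewise lowest there, and neither passed (limma over all probe sets, adjusted p = 0.697 and 0.658).

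In sterol sensing, 0 of 5 genes passed by limma, and 0 had an unadjusted p under 0.05. Srebf2, the factor that drives the synthesis genes, read 9.57, 9.74 and 9.54 in SCARKO-jsd testes, against 9.74, 9.74 and 9.57 in jsd testes, a difference of -0.06 with an interval of -0.29 to 0.17. Insig1, itself a target of that factor, read 9.12, 8.94 and 9.02 in SCARKO-jsd testes, against 9.09, 9.03 and 9.06 in jsd testes, a difference of -0.03 with an interval of -0.24 to 0.17. Scap, the sterol-sensing escort of the SREBPs, read 11.86, 12.13 and 11.95 in SCARKO-jsd testes, against 11.82, 11.81 and 11.55 in jsd testes. Its arrays do not overlap, with SCARKO-jsd 1 close above jsd 1, and the difference of 0.25 did not pass (limma, adjusted p = 0.308). Its dimmer probe set, under the limit for dim genes, went the other way at -0.17, and the mean of both gave 0.04. That probe set read 6.94, 5.61 and 6.93 in SCARKO-jsd testes, against 6.86, 6.33 and 6.80 in jsd testes. It was lowest in SCARKO-jsd 2, while SCARKO-jsd 1 and 3 lay above all jsd arrays. Insig2 and Srebf1, the factor of fatty acid genes, differed by -0.09 and 0.07.

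On the efflux side 0 of 3 genes passed (limma, 1 at an unadjusted p under 0.05). Abcg1, which loads cholesterol onto high-density lipoprotein, read 8.66, 9.11 and 8.93 in SCARKO-jsd testes, against 8.56, 8.52 and 8.64 in jsd testes. Its arrays do not overlap, and the log2 fold change of 0.33 ± 0.12 (SE) did not pass (limma, adjusted p = 0.219). Nr1h3, which encodes LXR alpha, the receptor that switches Abca1 and Abcg1 on, read 6.84, 6.86 and 6.78 in SCARKO-jsd testes, against 6.59, 6.68 and 6.62 in jsd testes. That difference of 0.20 ± 0.08 did not pass either (limma, adjusted p = 0.248), and the jsd mean of Nr1h3, 6.627, lies just under the limit for dim genes, 6.642. Apoe encodes apolipoprotein E, which accepts exported cholesterol and binds the Lrp8 receptor. It read 13.40, 13.24 and 13.48 in SCARKO-jsd testes, against 13.30, 13.24 and 13.11 in jsd testes. The difference was 0.16 with an interval of -0.08 to 0.39.

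Abca1, the exporter to lipid-poor apolipoproteins, depended on the probe set. The brightest read 13.34, 13.25 and 13.43 in SCARKO-jsd testes, against 13.46, 13.28 and 13.30 in jsd testes, a difference of -0.007. The other 2 gave -0.48 and -0.59, with overlapping arrays, and did not pass (limma over all probe sets, adjusted p = 0.468 and 0.557).

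Beyond the list, 71 other genes of cholesterol handling were followed, of which 49 were tested, 1 rose and 48 did not pass. Their median log2 fold change was 0.05. Of all genes tested, 3.57% passed in either direction. An unadjusted p under 0.05 (limma) was reached by 7 of the 49 and by 18.0% of all genes. Stard3, a protein of late endosomes that moves cholesterol to other membranes, read 10.07, 9.95 and 9.96 in SCARKO-jsd testes, against 9.44, 9.34 and 9.46 in jsd testes. The groups are far apart against their spread, and the log2 fold change was 0.58 ± 0.09 (SE), with a 95% interval of 1.30-fold to 1.72-fold (limma, Benjamini-Hochberg adjusted p = 0.0141). Its call ended without jsd 1 (0.0807), jsd 2 (0.0897) or SCARKO-jsd 3 (0.0638) and held without SCARKO-jsd 2, with adjusted p from 0.00380 to 0.0897 over 15 alternatives.

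By role, 1 of 24 tested genes of transport rose, and 0 of 11 of synthesis and its control, 0 of 9 of uptake and hydrolysis and 0 of 5 of oxysterol action passed, with 4, 1, 2 and 0 genes at an unadjusted p under 0.05 in that order. Those with the smallest p after Stard3 were, in transport, the transporter Abca7 (0.40, limma adjusted p = 0.112). In uptake and hydrolysis they were the sorting receptor Sort1 (-0.39, limma adjusted p = 0.182), which passed without SCARKO-jsd 2 (-0.50, 0.0385), and the ester hydrolase Nceh1 (0.34, 0.211). In synthesis they were Lbr, the sterol reductase of the nuclear envelope (0.29, limma adjusted p = 0.145), and Erg28 (-0.20, 0.356). In oxysterol action they were Rxra, the partner of the LXR receptors (0.21, limma adjusted p = 0.376), and Cyp27a1, the sterol hydroxylase (0.13, 0.537).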

How the data were processed

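The authors deposited log2 expression per probe set, which the submitters' processing notes trace to affy and RMA with no version, for 6 arrays. The values ran from 2.58 to 14.84 with 0 missing. Because RMA equalises the arrays, a change shared by most transcripts would not show. For arrays, their number limits the precision.

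The platform annotation from GEO, possibly dated, gave 1 symbol for 34958 of 45101 probe sets, several for 932 and none for 9211. 0 symbols needed updating through the gene ID. The brightest single-symbol probe set stood for each of 18194 genes, and genes in the lowest 40% by mean over the arrays (limit 6.64) were dropped. The remaining 10916 were tested with limma 3.58.1 in R 4.3.3 (lmFit and eBayes, no trend), fitting genotype alone, with two-sided p-values, 95% intervals and Benjamini-Hochberg adjustment at 0.05. The fit was tested on simulated data. The members and lists were chosen with earlier results of these data known. Named outside the members are the called genes and the 2 smallest p of each of 4 other lists, and markers that move beside a result. The gene targeted by the knockout is not reported here.

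Results were recomputed with all genes kept, with 60% dropped, with probe sets averaged per gene or tested singly, and with median centring, a further quantile normalization, trend with robust, arrayWeights, a replicate block and each array left out. The labels give no batch. Same-numbered arrays were not taken as pairs. Promoter windows are RefSeq's, and matplotlib 3.10.9 (Python 3.11.15) drew the figures.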

Additional observations from a re-analysis of the deposited data

How the results depend on the processing

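Over all genes, 390 passed by limma, against 860 with arrayWeights, 215 with every probe set tested by itself, and between 78 (without jsd 1) and 768 (without SCARKO-jsd 2) when 1 array was left out. Leaving out jsd 2, jsd 3, SCARKO-jsd 1 and SCARKO-jsd 3 gave 119, 239, 344 and 141. The members passing numbered 1 as reported, 0 with every probe set by itself, 2 with arrayWeights (Lrp8 and Lipa), and from 0 to 2 when 1 array was left out. Other cholesterol genes passing numbered from 0 to 2 when 1 array was left out. The fit with the replicate number as a block gave 397 genes and 1 member. Deviations of same-numbered arrays from their group means correlated at -0.21, 0.23 and 0.24, so the numbers were not taken as pairs. Among the members and the other cholesterol genes named, the block changed no call. Among the called markers and Reln, it ended the call of Wt1 (-0.48, limma adjusted p = 0.0657), and germ cell markers passing numbered 7, against 5 without it. The alternatives for markers and Reln were chosen after seeing the data.

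Of 582 gene values under the alternatives, 540 kept their sign and 42 in 15 members turned, all at most 0.12 in size and none of them called. With arrayWeights the log2 fold change was -0.064 for Mvk, 0.013 for Pmvk, -0.026 for Mvd, -0.014 for Idi1, -0.010 for Sqle, -0.025 for Cyp51, -0.054 for Srebf1 and 0.051 for Abca1. With arrays centred on their medians it was 0.028 for Pmvk, 0.024 for Fdps, 0.021 for Tm7sf2, 0.036 for Dhcr7, 0.010 for Insig1 and 0.037 for Abca1. With the mean of probe sets it was -0.026 for Mvk, -0.009 for Mvd, 0.038 for Fdps and -0.12 for Hsd17b7, and with a further quantile normalization -0.002 for Cyp51. When 1 array was left out, it ran from -0.084 to 0.101 for Mvk, -0.060 to 0.027 for Pmvk, -0.030 to 0.048 for Mvd, -0.001 to 0.106 for Idi1, -0.092 to 0.066 for Fdps, -0.029 to 0.036 for Cyp51, and -0.077 to 0.059 for Tm7sf2. It ran from -0.132 to 0.002 for Nsdhl, -0.056 to 0.101 for Hsd17b7, -0.080 to 0.069 for Dhcr7, -0.081 to 0.008 for Insig1, -0.025 to 0.128 for Srebf1, -0.017 to 0.047 for Npc1, and -0.051 to 0.052 for Abca1. The cause of these turns was not tested. With 3 arrays a group, dim probe sets such as 1421459_a_at of Lrp8 give the least certain sizes.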

Other observations

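Reln, chosen after the value of Lrp8 was seen because its product, reelin, binds that receptor, was 8.69, 8.27 and 8.35 in SCARKO-jsd testes, against 7.67, 7.81 and 7.67 in jsd testes (log2 expression). It rose by 0.72 ± 0.13 (SE on the log2 scale; limma, Benjamini-Hochberg adjusted p = 0.0242), and its arrays do not overlap. The call held without SCARKO-jsd 1 (limma, adjusted p = 0.0341) and without SCARKO-jsd 2 (0.00713). It was lost without jsd 1 (0.130), jsd 2 (0.0870), jsd 3 (0.0830) or SCARKO-jsd 3 (0.0779), and with every probe set tested by itself (0.0736). Other partners of the receptor, picked in the same way, did not pass. Selenop, which encodes selenoprotein P, read 14.20, 14.21 and 14.19 in SCARKO-jsd testes, against 14.21, 14.19 and 14.15 in jsd testes, so it differed by 0.02 (limma, adjusted p = 0.929). Clu, which encodes clusterin, differed by 0.04 and the adaptor gene Dab2 by -0.06 (adjusted p = 0.816 and 0.831), and the adaptor gene Dab1 was too dim to test.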
